A study of Mus musculus with 8 samples.

Results

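Genes of intestinal defence, 6 in number, were followed across crypt libraries of Setdb1 knockout and WT mice: the lectin genes Reg1, Reg3a, Reg3b, Reg3g and Reg4, and Retnlb. They were taken by name, through their Entrez identifiers, from a table in which 16958 genes had a value, and all 6 members were found. RNA of 6 crypt libraries was sequenced, each a group of its own, while 2 stem cell samples of the same series were not analysed here. The 5 knockout libraries, whose titles end in VEMD2, VEMD3, VEMD4, VEMD6 or VEMD8, came from C57BL/6 mice labelled setdb1 iIEC-KO, in which Villin-CreERT2, a recombinase driven by the promoter of an epithelial gene and active throughout the intestinal epithelium, serves to delete Setdb1. The WT library came from a setdb1fl/fl mouse of the same strain and age, 8 weeks. Per the labels, 1 dose of tamoxifen at 800 mg/kg, which switches the recombinase on, was given to knockouts and WT littermates alike. The letters VEMD are not spelled out and the number in a title is used only as a name. How many animals stand behind a library is not stated.

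Reg proteins are small secreted C-type lectin-like proteins. Reg3g binds the peptidoglycan of Gram-positive bacteria and kills them, and together with Reg3b it keeps bacteria away from the surface of the small intestine. Enterocytes and Paneth cells make both, under control of microbial signals through MyD88 and of interleukin-22 through STAT3. Retnlb encodes RELM-beta, a secreted protein of goblet cells that is induced by bacterial colonisation and by type 2 cytokines. Reg4 marks enteroendocrine cells of the small intestine and deep crypt secretory cells of the colon.

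Values are FPKM, in which the authors scaled fragments to the length of the gene and to the size of the library, so that levels of different genes can be set side by side. Each group holds 1 library, so no value carries an error, no difference was tested, and higher or lower describes these libraries alone. The depth behind the values is unknown. Setdb1 itself was still detected, between 3.53 FPKM in VEMD6 and 7.03 in VEMD3 among the knockout libraries, against 9.42 FPKM in WT. That value covers the gene as a whole, and none is at hand for the deleted part alone. FPKM summed over all genes lay between 481519 and 566585 in the knockouts, against 585501 in WT. Log2 ratios were taken after 1 FPKM was added to both values, and a gene was called higher or lower from 2-fold upwards on that scale. In bulk samples, fewer cells of a type and less RNA per cell cannot be told apart.

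**Figure D1:**
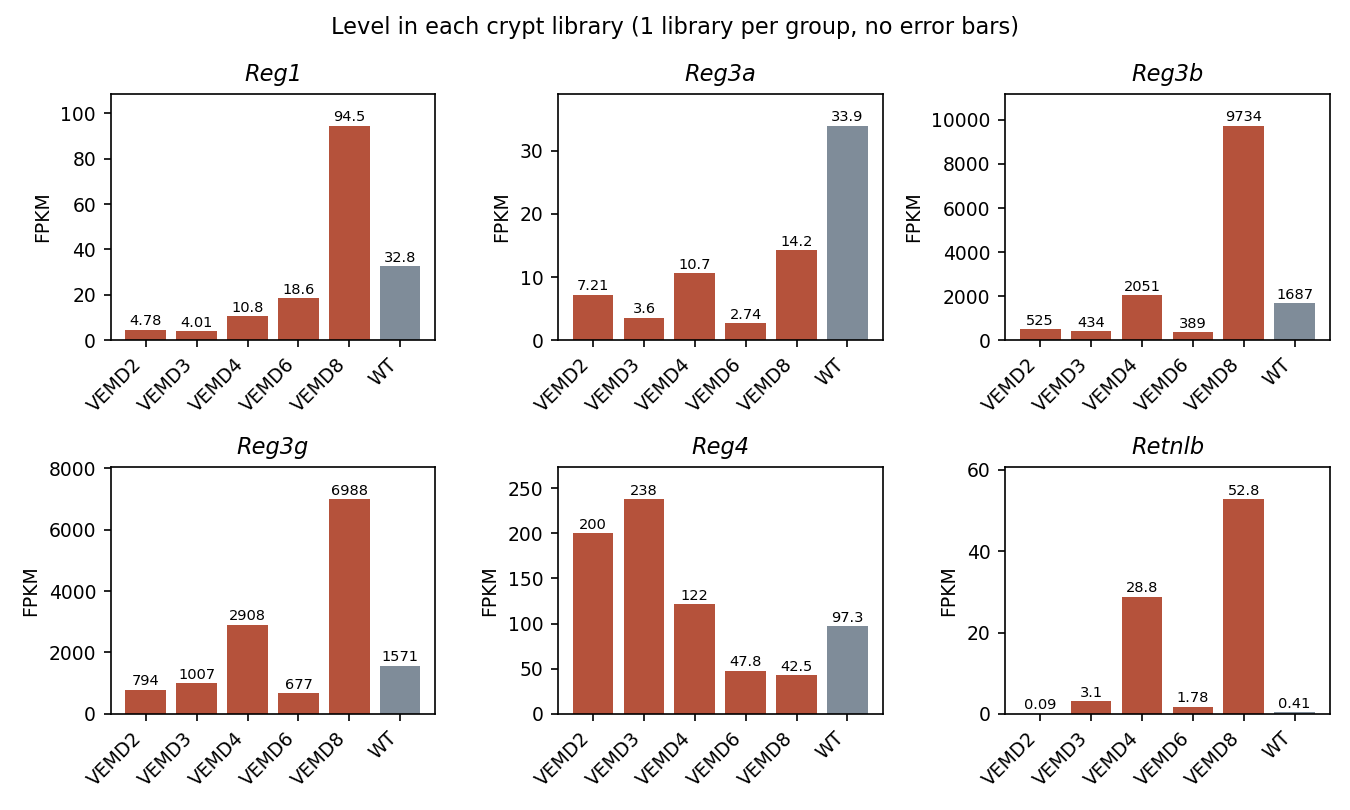
Level of each of the 6 genes in FPKM (vertical axes, each from 0), with 1 bar per crypt library, knockouts in red and WT in grey. Reg3b, Reg3g, Reg1 and Retnlb were highest in VEMD8, Reg3a was highest in WT and Reg4 was highest in VEMD3.

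Most of the genes lie together. Reg3b, Reg3a, Reg1 and Reg3g stand within 97.99 kb of chromosome 6, from 78370885 to 78468874 on GRCm38, with Reg3d and Reg2 between them. Reg3g and Reg3d are transcribed against the direction of the others. Reg4 lies on chromosome 3, from 98222138 to 98236748, and Retnlb on chromosome 16, from 48816856 to 48818892. All 6 are protein-coding genes, and their GENCODE transcripts with the longest coding sequence have 4 exons in Retnlb, 7 in Reg1 and 6 in each of the others. The family members are related but not copies. Coding sequences of Reg3b and Reg3g were identical at 76.0% of alignment positions, gaps counted among them. Those of Reg3a and Reg3b were at 73.6% and those of Reg3a and Reg3g at 73.2%. With gaps left out, the matches were 399 of 522, 394 of 515 and 385 of 521 positions in the same order, beside 3, 20 and 5 gaps. No stretch of 50 bases in the transcripts of Reg3a, Reg3b, Reg3g, Reg4 or Retnlb occurred in a transcript of another gene. In Reg1, 3.74% of such stretches did, in genes outside the family, and no stretch of 100 bases did.

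The promoters of Reg3b and Reg3g are shown because these genes, at the 2 ends of the cluster, had the most similar patterns among the 6. Those of Reg3a and Reg4 are shown beside them because Reg3a was below WT in every knockout library and Reg4 ran another way. Each line gives the 250 bases before the start used in the RefSeq promoter table on GRCm38.p6, read 5′ to 3′ on the strand of the gene. For Reg4 that start is 98222156, so the last 18 bases of its window lie inside the gene interval given above, while the other printed windows end where the interval begins. Capitals mark matches to 4 motifs searched on both strands: TATAAA (the TATA box), TTCNNNGAA and TTCNNNNGAA (spacings bound by STAT factors) and the NF-kB consensus. No match to one motif overlapped a match to another. The windows are chr6:78370635-78370884 on the plus strand for Reg3b, chr6:78468875-78469124 on the minus strand for Reg3g, chr6:78380459-78380708 on the plus strand for Reg3a and chr3:98221906-98222155 on the plus strand for Reg4.
Reg3b: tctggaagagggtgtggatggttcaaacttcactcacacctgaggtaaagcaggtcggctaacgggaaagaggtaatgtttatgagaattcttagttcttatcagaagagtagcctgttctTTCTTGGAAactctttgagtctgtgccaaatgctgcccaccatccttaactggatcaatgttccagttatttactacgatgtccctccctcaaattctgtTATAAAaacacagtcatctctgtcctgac
Reg3g: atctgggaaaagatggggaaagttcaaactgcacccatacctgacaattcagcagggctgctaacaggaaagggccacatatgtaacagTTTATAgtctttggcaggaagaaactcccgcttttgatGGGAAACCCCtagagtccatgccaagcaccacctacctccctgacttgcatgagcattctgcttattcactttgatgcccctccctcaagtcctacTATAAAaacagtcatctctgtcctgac
Reg3a: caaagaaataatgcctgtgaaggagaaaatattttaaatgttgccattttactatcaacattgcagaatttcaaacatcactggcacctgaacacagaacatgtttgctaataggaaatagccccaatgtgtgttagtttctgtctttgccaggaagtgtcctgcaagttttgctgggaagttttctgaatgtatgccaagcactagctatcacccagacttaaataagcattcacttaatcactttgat
Reg4: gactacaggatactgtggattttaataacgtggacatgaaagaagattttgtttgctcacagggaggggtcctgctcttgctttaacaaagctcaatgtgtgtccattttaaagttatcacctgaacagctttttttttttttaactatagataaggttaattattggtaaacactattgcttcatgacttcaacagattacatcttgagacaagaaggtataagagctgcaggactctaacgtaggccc

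Over promoter alignment positions, gaps counted among them, Reg3b and Reg3g were identical at 68.4%. They shared an unbroken run of 20 bases, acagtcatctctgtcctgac, up to the start. Against Reg3a the same windows were identical at 45.1% for Reg3b and 47.5% for Reg3g, and against Reg4 at 46.5% and 45.7%. The contrast with Reg3a lies in gaps. With gaps left out, Reg3b and Reg3g matched at 173 of 247 positions, beside 6 gaps. Reg3a matched Reg3b at 137 of 196, beside 108 gaps, and Reg3g at 143 of 199, beside 102. Reg4 matched them at 134 of 212 and 132 of 211, beside 76 and 78 gaps. Reg3b held TATAAA 29 to 24 bases before the start, Reg3g 27 to 22 bases before it and, on the other strand, a further match at 161 to 156 bases. Reg1, not printed, held TATAAA at 30 to 25 bases. The motif occurred in 12.4% of all 32851 promoters of this length. TTCNNNGAA stood in Reg3b at 129 to 121 bases, against 7.02% of all promoters, and TTCNNNNGAA in Reg1 at 244 to 235 bases, against 5.85%. The NF-kB consensus stood in Reg3g at 123 to 114 bases, a stretch that matches on both strands, against 7.25% of all promoters. Reg3a and Reg4 held none of these letters in their windows. A match describes the sequence and does not show that a factor binds there.

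Reg3b was the gene with the highest level of all 16958 in VEMD8, and Reg3g was next after it. Reg3b, a bactericidal lectin with activity against Gram-negative bacteria, was at 525 FPKM in VEMD2, at 434 in VEMD3, at 2051 in VEMD4, at 389 in VEMD6 and at 9734 in VEMD8, against 1687 FPKM in WT. The lowest and the highest value of the 6 libraries were those of VEMD6 and VEMD8, 25.0 times apart. Its log2 ratios to WT were -1.68, -1.96, 0.28, -2.11 and 2.53 from VEMD2 to VEMD8. Thus Reg3b was at least 2-fold lower in 3 knockout libraries, within 2-fold of WT in VEMD4 and at least 2-fold higher in VEMD8.

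Reg3g had the same highest and lowest libraries. It stood at 794 FPKM in VEMD2, at 1007 in VEMD3, at 2908 in VEMD4, at 677 in VEMD6 and at 6988 in VEMD8, against 1571 FPKM in WT. VEMD8 was again the highest library and VEMD6 the lowest, 10.3 times apart. The log2 ratios to WT were -0.98, -0.64, 0.89, -1.21 and 2.15 from VEMD2 to VEMD8. The first and the fourth stand close to the 2-fold line. With libraries rescaled so that the median tested gene had a ratio of 0, the ratio became -1.07 in VEMD2 and -0.98 in VEMD6.

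The balance of the pair differed between libraries. The ratio of Reg3b to Reg3g in FPKM was 0.66, 0.43, 0.71, 0.57 and 1.39 from VEMD2 to VEMD8, against 1.07 in WT. Reg3g was thus the more abundant RNA per length in 4 of 5 knockout libraries, and Reg3b in VEMD8 and WT. Together they made up 0.233%, 0.270%, 0.970%, 0.222% and 3.40% of all FPKM from VEMD2 to VEMD8, against 0.556% in WT. Of the FPKM of all 6 members, the pair held between 85.3% in VEMD3 and 98.8% in VEMD8, against 95.2% in WT. In VEMD4 only 3 genes had a higher level than Reg3g and 11 than Reg3b, against 38 and 29 in WT.

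Reg3a, a further lectin of the family that lies 9.82 kb from the start of Reg3b, was lower than WT in every knockout library. It was at 7.21 FPKM in VEMD2, at 3.6 in VEMD3, at 10.66 in VEMD4, at 2.74 in VEMD6 and at 14.23 in VEMD8, against 33.92 FPKM in WT. No knockout value reached the WT value. Log2 ratios were -2.09, -2.92, -1.58, -3.22 and -1.20 from VEMD2 to VEMD8. Among the 6 genes Reg3a was the 1 that passed the 2-fold rule downwards in all 5 libraries, as 0.626% of the 10862 tested genes did, and none passed it upwards, against 0.571%. All 5 ratios share the WT library and are not independent. Within the knockouts, VEMD8 and VEMD4 were the highest libraries of Reg3a and VEMD6 the lowest, as for Reg3b and Reg3g. The ratio of Reg3b to Reg3a was 684 in VEMD8 and between 72.8 and 192 in the other knockouts, against 49.7 in WT.

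Reg1, the pancreatic stone protein, also made by gastric and intestinal epithelium, was at 4.78 FPKM in VEMD2, at 4.01 in VEMD3, at 10.83 in VEMD4, at 18.55 in VEMD6 and at 94.45 in VEMD8, against 32.76 FPKM in WT. VEMD8 was the 1 knockout library above WT. Its log2 ratios to WT were -2.55, -2.75, -1.51, -0.79 and 1.50 from VEMD2 to VEMD8. Reg1 thus differed from Reg3b and Reg3g in VEMD4, where it was 2-fold lower and they were not, and in VEMD6, where it stood above VEMD4 rather than below it.

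**Figure D2:**
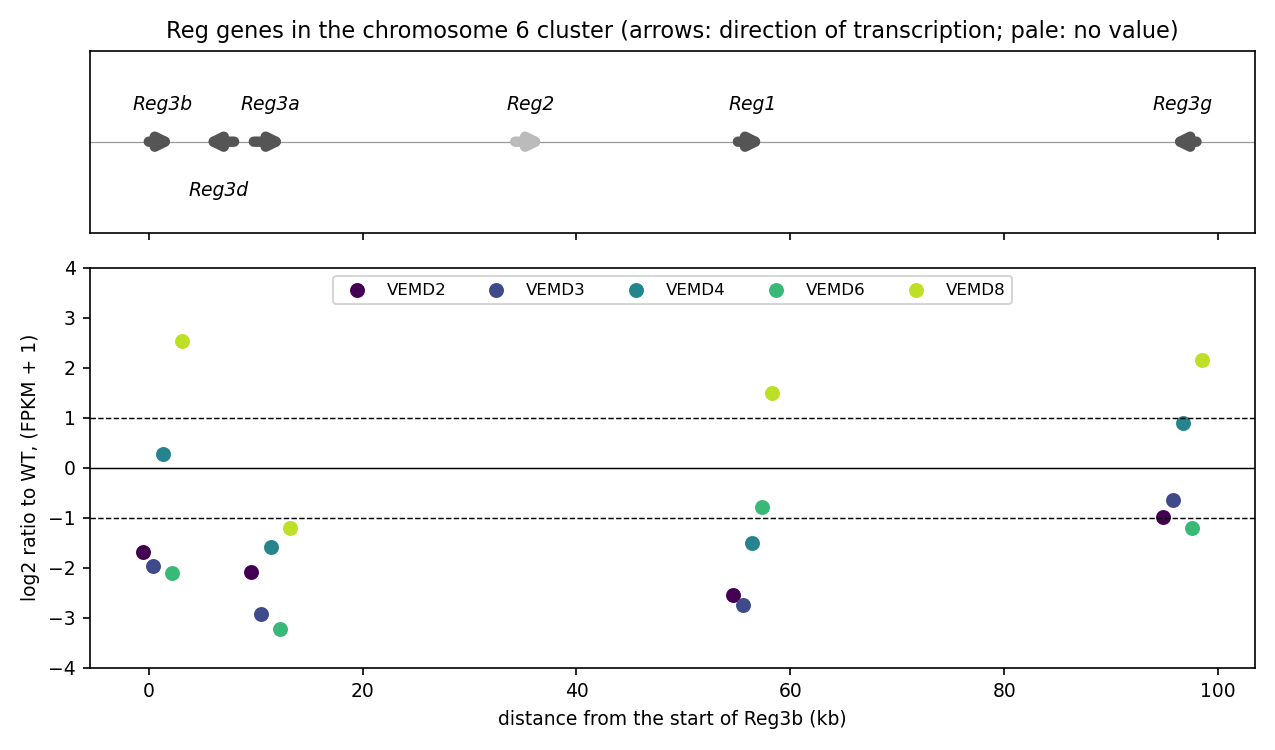
Top, Reg genes of the chromosome 6 cluster as arrows in the direction of transcription, against distance from the start of Reg3b in kb; Reg2 (pale) had no value and Reg3d was below the filter. Bottom, log2 ratio to WT of Reg3b, Reg3a, Reg1 and Reg3g in the 5 knockout libraries, with points spread sideways for legibility and dashed lines at 2-fold; VEMD8 is the highest point at each gene, and at Reg3a all 5 points lie below the lower line.

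Other genes of both families had low values or none. Reg3d, which lies between Reg3b and Reg3a, was at 0.16 FPKM in VEMD2, at 0.88 in VEMD4 and at 3.63 in VEMD8 with a listed value of 0 in VEMD3 and VEMD6, against 1.02 FPKM in WT. Its mean was under the filter of 1 FPKM, so it was not tested. Reg2 and Retnla had no value in any crypt library. Retn was listed at 0 in all but VEMD3, at 0.1 FPKM, and Retnlg in all but VEMD4, at 0.52 FPKM.

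Reg4 ran another way than the genes of the cluster. It was at 200 FPKM in VEMD2, at 238 in VEMD3, at 122 in VEMD4, at 47.8 in VEMD6 and at 42.5 in VEMD8, against 97.3 FPKM in WT. VEMD2, VEMD3 and VEMD4 were above WT and VEMD6 and VEMD8 below it. Log2 ratios were 1.03, 1.28, 0.32, -1.01 and -1.18 from VEMD2 to VEMD8. The ratio of VEMD2 became 0.95 and that of VEMD6 -0.78 after rescaling to the median gene, so 2-fold holds there on the deposited scale only. The 14 enteroendocrine markers, measured because Reg4 marks these cells, summed to 455 FPKM in VEMD2, to 719 in VEMD3, to 398 in VEMD4, to 107 in VEMD6 and to 36.7 in VEMD8, against 386 in WT. Of 12 tested markers, 0, 4, 1, 0 and 0 were at least 2-fold higher from VEMD2 to VEMD8. The numbers at least 2-fold lower were 0, 0, 0, 10 and 11. Among all tested genes, 2.44%, 6%, 7.11%, 5.04% and 4.36% were higher and 2.39%, 4.63%, 5.04%, 8.15% and 5.21% lower, in the same order. In VEMD2, where Reg4 was at a log2 ratio of 1.03, the median of these markers was 0.12. Gcg, which encodes proglucagon, was at 68.1 FPKM in VEMD2, at 83.6 in VEMD3, at 23.4 in VEMD4, at 1.24 in VEMD6 and at 0.67 in VEMD8, against 35.9 FPKM in WT. Their part in the Reg4 values was not tested.

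Retnlb was close to 0 in WT and had its highest values in VEMD4 and VEMD8. It was at 0.09 FPKM in VEMD2, at 3.1 in VEMD3, at 28.79 in VEMD4, at 1.78 in VEMD6 and at 52.77 in VEMD8, against 0.41 FPKM in WT. VEMD2 was below WT and the other 4 knockout libraries above it. Log2 ratios were -0.37, 1.54, 4.40, 0.98 and 5.25 from VEMD2 to VEMD8, and of the 10862 tested genes 99.9% had a lower ratio in VEMD4 and in VEMD8. Since WT is low, Retnlb passed the filter only through the knockouts and its ratios depend on the pseudocount. With 0.1 FPKM the ratio of VEMD2 was -1.42 and that of VEMD6 1.88, and with 5 FPKM that of VEMD3 was 0.58. After rescaling, that of VEMD6 was 1.21.

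Goblet cells are the known source of Retnlb. Their 13 markers, all tested, summed to 5468 FPKM in VEMD2, to 3753 in VEMD3, to 6248 in VEMD4, to 1194 in VEMD6 and to 2016 in VEMD8, against 5696 in WT, and none was at 0 in any library. The numbers at least 2-fold higher were 1, 0, 1, 0 and 0 from VEMD2 to VEMD8, and the numbers lower were 0, 2, 0, 10 and 7. The sum was thus higher in VEMD4 than in VEMD3 and in VEMD8 than in VEMD6, as Retnlb was, but below WT in VEMD8, where Retnlb was highest. Of 7 tested genes of type 2 signalling, which induces Retnlb, 0, 1, 1, 2 and 1 were higher from VEMD2 to VEMD8, and 1 was lower in VEMD6 and in VEMD8. For both lists, the shares of all tested genes were 2.44%, 6%, 7.11%, 5.04% and 4.36% higher. They were 2.39%, 4.63%, 5.04%, 8.15% and 5.21% lower. The alarmin Il33 was at 8.26 FPKM in VEMD2, at 27.5 in VEMD3, at 96.7 in VEMD4, at 30.8 in VEMD6 and at 26.6 in VEMD8, against 4.89 FPKM in WT. It was thus also above WT in VEMD3 and VEMD6, where Retnlb was lower than in VEMD4 and VEMD8. Clca1, a secreted goblet cell product, was at 274 FPKM in VEMD2, at 167 in VEMD3, at 377 in VEMD4, at 45.1 in VEMD6 and at 43.4 in VEMD8, against 200 FPKM in WT. Il4, Il13 and Il25 had no value in any library. The part of goblet cells and of type 2 signalling in the Retnlb values was not tested.

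Counted by library, members passed the 2-fold rule in both directions. In VEMD2, 1 member was higher and 3 were lower, where 2.44% and 2.39% of tested genes were. In VEMD3 the counts were 2 and 3, against 6% and 4.63% of tested genes, and in VEMD4 they were 1 and 2, against 7.11% and 5.04%. In VEMD6 no member was higher and 4 were lower, against 5.04% and 8.15% of tested genes. In VEMD8, 4 were higher and 2 lower, against 4.36% and 5.21%. Each of the 6 members was 2-fold from WT in at least 1 library, as were 24.5% of tested genes. Reg1, Reg3b, Reg3g and Reg4 were higher in one knockout library and lower in another, which held for 1.13% of tested genes. The median log2 ratio of the 6 was -1.33, -1.30, 0.30, -1.11 and 1.83 from VEMD2 to VEMD8. Over all tested genes it was 0.09, 0.12, 0.03, -0.23 and -0.06 in the same order.

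**Figure D3:**
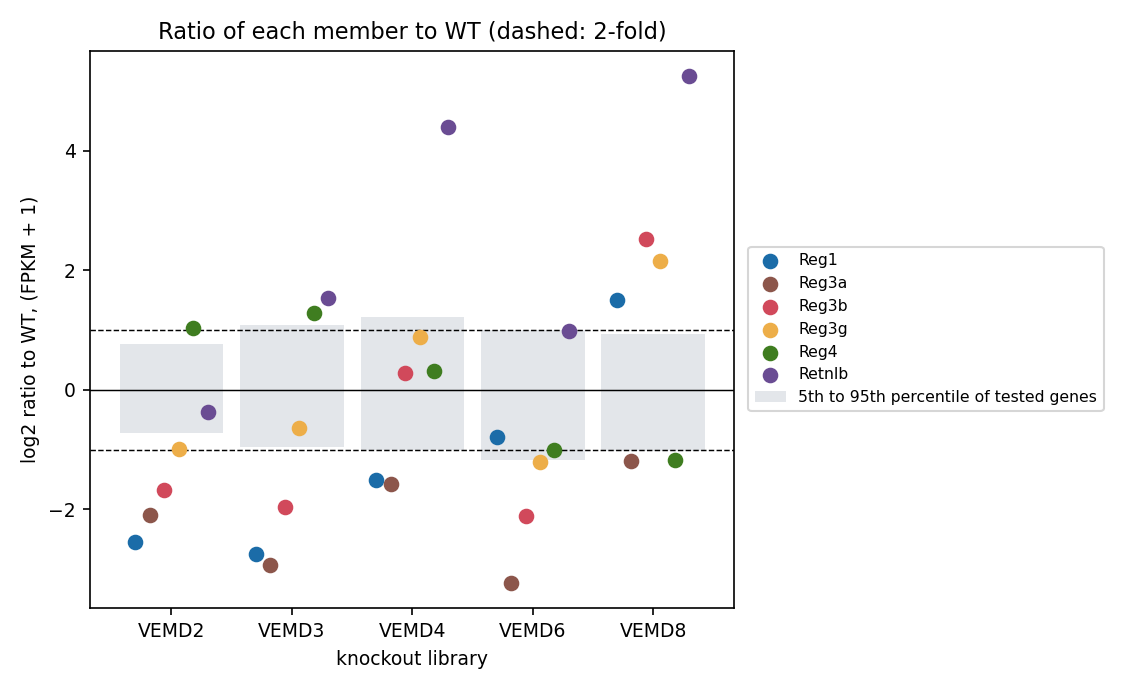
Log2 ratio to WT (vertical axis, FPKM + 1) of each of the 6 genes in the 5 knockout libraries, as points, with the 5th to 95th percentile of the 10862 tested genes as grey bars and dashed lines at 2-fold. In VEMD8, Retnlb, Reg3b, Reg3g and Reg1 lie above the grey bar and Reg3a and Reg4 below it.

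Set against each other, the knockout libraries also differed in these genes. In VEMD4 against VEMD3, log2 differences were 2.24 for Reg3b, 1.53 for Reg3g, 1.34 for Reg3a, 1.24 for Reg1 and 2.86 for Retnlb, so that 5 members passed 2-fold upwards in VEMD4, against 2.58% of tested genes, and none downwards, against 0.552%. VEMD6 against VEMD4 gave the opposite sign for Reg3b at -2.39, Reg3g at -2.10, Reg3a at -1.64 and Retnlb at -3.42, and also -1.33 for Reg4. Those 5 were at least 2-fold lower in VEMD6, against 9.62% of tested genes, and none was higher, against 4.87%. In VEMD8 against VEMD6, Reg3b was higher by 4.64, Reg3g by 3.36, Reg3a by 2.03, Reg1 by 2.29 and Retnlb by 4.27 on the log2 scale, again 5 members, against 1.45% of tested genes, and none was 2-fold lower, against 2.22%. Between VEMD3 and VEMD2 only Retnlb passed 2-fold, with a difference of 1.91, where 1.44% of tested genes were higher and 1.11% lower. Neighbouring comparisons share a library and are not independent. Over all 6 libraries, 5 members had a highest value at least 8-fold above the lowest, Reg4 being the exception, as did 2.43% of tested genes.

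Genes with the most similar patterns were sought among 8178 named genes that averaged 5 FPKM or more. Likeness was the root mean square difference between log2(FPKM + 1) values over the 6 libraries after each gene's own mean was subtracted. For Reg3b the nearest were Reg3g at 0.56, B3galt5, a galactosyltransferase, at 0.81 and Reg1 at 0.98. For Reg3g they were B3galt5 at 0.42, Wtip, a LIM domain protein, at 0.52 and Reg3b at 0.56. B3galt5 was at 5.85 FPKM in VEMD2, at 4.82 in VEMD3, at 17.59 in VEMD4, at 5.93 in VEMD6 and at 45.42 in VEMD8, against 5.47 FPKM in WT. Nearest to Reg1 were Dmbt1, a secreted scavenger receptor that binds bacteria, at 0.62, the chemokine gene Ccl20 at 0.70 and Chp2, a calcineurin-like calcium-binding protein, at 0.91. Dmbt1 was at 186 FPKM in VEMD2, at 72.6 in VEMD3, at 106 in VEMD4, at 240 in VEMD6 and at 898 in VEMD8, against 566 FPKM in WT, so VEMD8 was its 1 knockout library above WT, as for Reg1.

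Reg3a was nearest to Spink1, a trypsin inhibitor, at 0.46, to Pdcd4, an inhibitor of translation, at 0.56 and to Socs2, a suppressor of cytokine signalling, at 0.65. Spink1 was at 172 FPKM in VEMD2, at 125 in VEMD3, at 286 in VEMD4, at 151 in VEMD6 and at 239 in VEMD8, against 589 FPKM in WT. Reg4 was nearest to Rbm38, an RNA-binding protein, at 0.19, to Hmga1, a chromatin protein of proliferating cells, at 0.27 and to Itpripl1 at 0.28. Retnlb was nearest to Anxa10, an annexin, at 0.77, to Fut2, the fucosyltransferase that adds fucose to the surface of gut epithelium, at 0.89 and to Cd209c, a C-type lectin, at 1.12. Fut2 was at 2.09 FPKM in VEMD2, at 7.32 in VEMD3, at 22.59 in VEMD4, at 6.45 in VEMD6 and at 27.89 in VEMD8, against 1.08 FPKM in WT. As in Retnlb, VEMD8 and VEMD4 were its highest libraries.

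Among signals known to act on Reg3b and Reg3g, epithelial genes induced by interleukin-22 or STAT3 were counted by library. Of 10 tested genes of that list, 6 were at least 2-fold higher in VEMD4 and 4 in VEMD8, against 0, 2 and 1 in VEMD2, VEMD3 and VEMD6. The numbers at least 2-fold lower were 2, 1, 1, 2 and 0 from VEMD2 to VEMD8. Of all tested genes, 2.44%, 6%, 7.11%, 5.04% and 4.36% were higher and 2.39%, 4.63%, 5.04%, 8.15% and 5.21% lower, in the same order. The list's median log2 ratio was -0.54, 0.05, 1.03, -0.23 and 0.82 from VEMD2 to VEMD8. With no filter on low values, when all 16 genes of the list entered, the median of VEMD8 was 0.15 and that of VEMD4 0.98. The median of VEMD4 was 0.87 under a pseudocount of 5 FPKM and 0.997 after rescaling, where those of VEMD3 and VEMD6 turned sign, to -0.07 and 0.01. With a minimum of 5 FPKM the median of VEMD3 was -0.02. The members did not move as 1. Duoxa2, which matures the oxidase Duox2, was at 13.6 FPKM in VEMD2, at 32.0 in VEMD3, at 145 in VEMD4, at 11.6 in VEMD6 and at 52.9 in VEMD8, against 23.7 FPKM in WT. Saa1, an acute phase protein, was at 11.4 FPKM in VEMD4 and between 0.3 and 0.93 in the other knockouts, against 0.59 FPKM in WT. Fut2 and Dmbt1, given above, belong to this list.

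Of 9 tested receptors, cytokines and kinases leading to STAT3, 2, 2, 1, 1 and 1 were at least 2-fold higher from VEMD2 to VEMD8 and none lower in any library. Of all tested genes, 2.44%, 6%, 7.11%, 5.04% and 4.36% were higher and 2.39%, 4.63%, 5.04%, 8.15% and 5.21% lower, in the same order. Il6st, the receptor chain gp130, was at 9.28 FPKM in VEMD2, at 11.6 in VEMD3, at 10.5 in VEMD4, at 11.6 in VEMD6 and at 12.9 in VEMD8, against 3.91 FPKM in WT. Il22ra1, the interleukin-22 receptor chain of epithelium, was at 15.9, 19.95, 22.7, 35.3 and 27.5 FPKM from VEMD2 to VEMD8, against 17.6 FPKM in WT. Il22 had no value in any library, and Il6 was at most 0.28 FPKM, in VEMD4. Beside the same shares of all tested genes stand 17 tested genes of microbial sensing through MyD88 and NOD. None was 2-fold lower in any library or higher in VEMD2, and 1 was higher in each other knockout library. That gene was Tlr2, a receptor of bacterial lipoproteins, at 5.92 FPKM in VEMD2, at 13.6 in VEMD3, at 19.3 in VEMD4, at 13.7 in VEMD6 and at 19.3 in VEMD8, against 3.86 FPKM in WT. The part of interleukin-22, STAT3 or microbial signals in the Reg3b and Reg3g values was not tested.

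**Figure D4:**
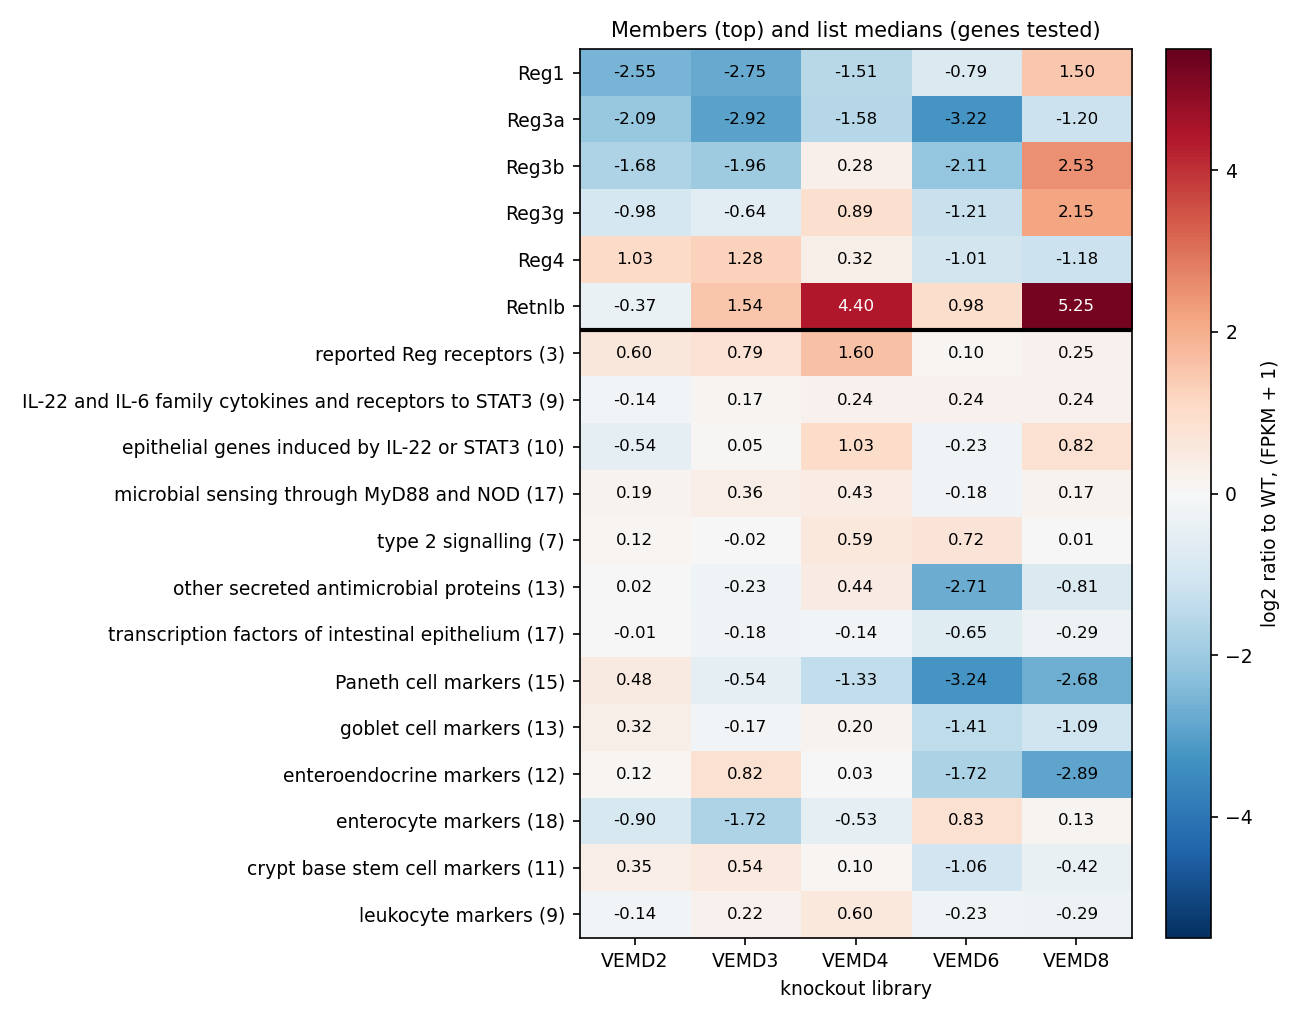
Log2 ratio to WT (colour and printed value) of the 6 genes above the black line and, below it, the median of each gene list with the number of tested genes in brackets, for the 5 knockout libraries. In VEMD8, Reg3b at 2.53 and Reg3g at 2.15 stand beside Paneth cell markers at -2.68 and enterocyte markers at 0.13.

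Markers of the cells that make Reg3b and Reg3g had another order of libraries. The 15 Paneth cell markers, all tested and none at 0, summed to 44265 FPKM in VEMD2, to 22347 in VEMD3, to 8879 in VEMD4, to 2770 in VEMD6 and to 3916 in VEMD8, against 31295 in WT. In VEMD8, 12 of them were at least 2-fold lower and none higher, while Reg3b and Reg3g were at their highest. Ang4, a bactericidal ribonuclease of Paneth cells, was at 1099 FPKM in VEMD2, at 618 in VEMD3, at 196 in VEMD4, at 31.3 in VEMD6 and at 63.0 in VEMD8, against 724 FPKM in WT. The 18 enterocyte markers, also all tested and none at 0, summed to 6596, 4776, 10555, 29597 and 14282 FPKM from VEMD2 to VEMD8, against 14657 in WT. Their highest sum was in VEMD6, in which Reg3b and Reg3g were lowest. The numbers at least 2-fold higher were 0, 0, 0, 6 and 1 from VEMD2 to VEMD8, and the numbers lower were 9, 15, 7, 2 and 3. Lct and Treh were lower in all 5 knockout libraries, at log2 ratios of -1.90 and -1.21 in VEMD6. Of all tested genes, 2.44%, 6%, 7.11%, 5.04% and 4.36% were higher and 2.39%, 4.63%, 5.04%, 8.15% and 5.21% lower, in the same order.

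Other secreted antimicrobial genes split. Of 13 tested, the numbers at least 2-fold higher were 0, 0, 4, 3 and 3 from VEMD2 to VEMD8, and the numbers lower were 3, 2, 6, 7 and 6. Of all tested genes, 2.44%, 6%, 7.11%, 5.04% and 4.36% were higher and 2.39%, 4.63%, 5.04%, 8.15% and 5.21% lower, in the same order. The higher ones were the related genes Sprr2a1, Sprr2a2 and Sprr2a3 in VEMD4, VEMD6 and VEMD8, and Pla2g2a in VEMD4 alone. Sprr2a3 was at 241, 649, 2644, 2941 and 1453 FPKM from VEMD2 to VEMD8, against 603 FPKM in WT. Zg16, a lectin that aggregates Gram-positive bacteria in mucus, was at 1095 FPKM in VEMD2, at 532 in VEMD3, at 2250 in VEMD4, at 83.7 in VEMD6 and at 107 in VEMD8, against 1659 FPKM in WT. Thus in VEMD8 Zg16 was low where the lectins Reg3b and Reg3g were high. Mptx2, a pentraxin of Paneth cells, was at 1953 FPKM in VEMD2, at 774 in VEMD3, at 305 in VEMD4, at 117 in VEMD6 and at 203 in VEMD8, against 1309 FPKM in WT.

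Markers of gut region also moved between libraries, and levels of Reg genes vary along the gut. Of 8 tested, the numbers at least 2-fold higher were 2, 2, 2, 3 and 2 from VEMD2 to VEMD8, and the numbers lower were 1, 2, 2, 2 and 3. Among all tested genes, 2.44%, 6%, 7.11%, 5.04% and 4.36% were higher and 2.39%, 4.63%, 5.04%, 8.15% and 5.21% lower, in the same order. Slc40a1, the iron exporter of the duodenum, was at 0.16 FPKM in VEMD2, at 0.28 in VEMD3, at 1.03 in VEMD4, at 46.7 in VEMD6 and at 20.9 in VEMD8, against 1.77 FPKM in WT. Fabp6, the bile acid-binding protein of the ileum, was at 51.7, 8.19, 5.54, 0 and 0.38 FPKM from VEMD2 to VEMD8, against 2.27 FPKM in WT. Slc10a2, the bile acid transporter of the ileum, was at 3.1, 5.27, 4.67, 1.12 and 1.22 FPKM from VEMD2 to VEMD8, against 0.65 FPKM in WT. Osr2, also of this list, was at 26.8, 21.2, 10.4, 2.87 and 0.5 FPKM from VEMD2 to VEMD8, against 34.8 FPKM in WT. VEMD6 and VEMD8, the lowest and the highest library for Reg3b, stood above WT in Slc40a1 and Slc10a2 and below it in Fabp6 and Osr2. Slc40a1 and Osr2 were higher in VEMD6 than in VEMD8. The log2 ratios of Slc10a2 to WT were 0.36 in VEMD6 and 0.43 in VEMD8, within 2-fold. Of 16 leukocyte markers, 9 were tested and 2 were 2-fold higher in VEMD4 and 1 in VEMD8; they summed to 52.0 FPKM in VEMD4 and between 20.8 and 31.2 in the other knockouts, against 27.3 in WT, and between 1 and 4 of them were at 0 in a knockout library, against 3 in WT. Of 18 genes of pancreatic acinar cells, a known source of Reg1, 10 had no value, among them Prss2, Cpa1 and Pnlip, and 3 were tested. Clps, which encodes colipase, made up most of the list's sum in VEMD8 and in WT, at 19.9 of 25.4 FPKM in VEMD8, against 135 of 141 in WT. The elastase gene Cela1 was at 3.29 FPKM in VEMD8, against 3.32 in WT. Whether region, leukocytes, acinar cells, Paneth cells or enterocytes have a part in the values of the 6 genes was not tested.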

How the data were processed

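Per the labels' protocols, crypt RNA was extracted with Trizol from frozen crypts, and sequencing used a BGI-500 instrument. HISAT2, featureCounts and edgeR, with the builds GRCm38 and mm10, are named in the submitters' processing notes, without versions or roles. Gene values are FPKM as deposited by the authors, per the file headers, rounded to 2 decimals. The column headed WT1 was taken as the WT crypt library.

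Of 20718 lines, 16958 genes had a value and 16916 matched a symbol in the RefSeq annotation of GRCm38. A gene counted as tested at a mean of at least 1 FPKM over the 6 crypt libraries, which held for 10862 genes and all 6 members. Ratios used a pseudocount of 1 FPKM, and the call was 2-fold in either direction. The rule was tested on simulated data. The 6 genes and the 20 gene lists were chosen with earlier results of these data known. Named genes were the members, their relatives, up to 4 genes per list with the largest ratio, and the 3 genes of most similar pattern for each member. Cytokine genes with no or low values, Pla2g2a and the Sprr2a genes were named after their values were seen. Promoters are RefSeq's for 5 members. Coding identity came from global alignment with Biopython 1.88 of GENCODE M21 transcripts. Analyses ran in Python 3.11.15 with pandas 2.3.3 and numpy 2.4.6. A further table of repeats was not used, among it 2 columns of values per sample that no label ties to a sample.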

Additional observations from a re-analysis of the deposited data

Results flagged for a closer look

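Reg1, Reg3b, Reg3g and Reg4 each stood 2-fold or more above WT in one knockout library and 2-fold or more below it in another. The difference was not tested, since each library is a group of 1. Between its highest and lowest knockout library, Reg3b differed by 4.64 on the log2 scale (VEMD8 against VEMD6), Reg3g by 3.36 (VEMD8 against VEMD6), Reg1 by 4.25 (VEMD8 against VEMD3) and Reg4 by 2.46 (VEMD3 against VEMD8).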

How the results depend on the processing

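No paired analysis was possible because there is only 1 library in a group. Ratios of the 6 genes were taken again under 5 alternatives, 30 in each. A filter cannot alter the ratio of a gene that passes it, so those under either filter were the same by design. With a pseudocount of 0.1 FPKM, 28 kept their direction and their side of 2-fold. With 5 FPKM 28 did, and after rescaling 25 did. None changed sign. The others were as follows, and the cause was not tested beyond the change of scale itself. With a pseudocount of 0.1 FPKM, Retnlb was at -1.42 in VEMD2 and 1.88 in VEMD6, which made 4 members lower in VEMD2 and 1 higher in VEMD6. With 5 FPKM, Retnlb was at 0.58 in VEMD3, which left 1 member higher there, and Reg4 at -0.95 in VEMD6, which left 3 lower there. With libraries rescaled to the median tested gene, Retnlb was at 1.21 and Reg3g at -0.98 in VEMD6, Reg3g was at -1.07 in VEMD2, and Reg4 was at 0.95 in VEMD2 and -0.78 in VEMD6. Members counted as higher were then 0 in VEMD2 and 1 in VEMD6, and as lower 4 in VEMD2 and 2 in VEMD6. Filters at no minimum or at 5 FPKM could change none of these ratios or counts, since all 6 members pass both. Leaving out each knockout library in turn kept 0 members higher and 1 lower in all that remained. Reg3a, lower in all 5, had to stay lower by design, and WT, shared by all ratios, was never left out. With a pseudocount of 0.1 FPKM the third nearest gene became Lrrc19 for Reg1, Wtip for Reg3b, Ctc1 for Reg4 and Plet1 for Retnlb. Depth is unknown, which limits low values most, those of Retnlb in VEMD2 and WT first.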

Other observations

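Genes reported as receptors or partners of Reg proteins were higher in some knockout libraries. Cd44, an adhesion receptor, was at 34.5 FPKM in VEMD2, at 56.1 in VEMD3, at 48.6 in VEMD4, at 13.7 in VEMD6 and at 18.3 in VEMD8, against 11.4 FPKM in WT. Egfr, the receptor of epidermal growth factor, was at 15.8 FPKM in VEMD4 and between 4.14 and 8.64 in the other knockouts, against 4.56 FPKM in WT. Extl3, a glycosyltransferase reported as a receptor of Reg proteins, stayed within 2-fold of WT in all 5 libraries, at 4.15 to 6.92 FPKM in the knockouts, against 3.8 FPKM in WT.

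Of 17 transcription factors of intestinal epithelium, all tested, 0, 2, 2, 0 and 0 were 2-fold higher from VEMD2 to VEMD8. The numbers lower were 1, 2, 1, 6 and 1. Among all tested genes, 2.44%, 6%, 7.11%, 5.04% and 4.36% were higher and 2.39%, 4.63%, 5.04%, 8.15% and 5.21% lower, in the same order. Atoh1, which directs cells to secretory fates, was at 3.42 FPKM in VEMD6 and 4.50 in VEMD8, against 10.7 FPKM in WT. Foxa1, a factor of secretory differentiation, was at 19.1 FPKM in VEMD4, against 6.41 FPKM in WT. Hnf4g, a factor of enterocytes, was at 26.1 FPKM in VEMD4 and 79.9 in VEMD8, against 98.1 FPKM in WT.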
